A study of Mus musculus with 2 samples.

Results

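Retinoic acid synthesis, binding and breakdown genes were followed through single cells of the mouse utricle, a balance organ of the inner ear, before and after birth. The 9 genes were fixed by name: Aldh1a1, Aldh1a2 and Aldh1a3 (synthesis), Dhrs3 (retinal reduction), Cyp26b1 (breakdown), Crabp1 and Crabp2 (binding in the cell), Rarb (receptor) and Rbp4 (retinol carrier). All 9 were found among the 31053 genes of both count matrices. The series held 1 library of wild-type (WT) mice at embryonic day 14 (E14) and 1 at postnatal day 2 (P2), with no treatment and no altered allele at either age. The study's mice were on the C57BL/6J background. Utricles were stripped of their otolithic membranes, the sensory epithelium was lifted off with thermolysin and dissociated with Accutase, and 3′ single-cell libraries were made on the 10x Genomics platform with 20000 cells targeted for each. The study's methods name several animals of either sex as the source of its inner ears, without the number behind each of these libraries. With 1 library per age there was no replicate, so levels are given with exact 95% Poisson intervals and ratios with exact 95% conditional binomial intervals, which cover counting error alone, and no test between ages was possible. Differences between the ages cannot be told apart from differences between these libraries.

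Retinoic acid is made from retinol in a pair of steps, the oxidation of retinol to retinal, for which RDH10 is the main enzyme of the embryo, and the irreversible oxidation of retinal by the ALDH1A enzymes. DHRS3 turns retinal back into retinol, and the CYP26 enzymes degrade retinoic acid, so that tissues hold zones of high and low signal according to which enzymes are present. CRABP proteins bind retinoic acid in the cytoplasm, RAR receptors bind it in the nucleus together with RXR partners, and Rarb is itself a classic retinoic acid target gene. In the vestibular organs, Cyp26b1 is known from the striola, the central strip of the macula where hair bundles reverse their orientation, and Aldh1a3 from the zone around it.

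Promoter sequences are shown for 3 of the genes whose levels set clusters apart in the results that follow, Rarb and Dhrs3 (hair cells) and Cyp26b1 (supporting cells), because Rarb carries a retinoic acid receptor motif there. RefSeq windows on build GRCm38.p6, from 250 bases before to 50 bases after a transcription start, existed for 7 of the 9 genes, 11 windows in all. Each window was searched on both strands for direct repeats of the 4 half-sites AGGTCA or GGGTCA or AGTTCA or GGTTCA, in any pair, with 1, 2 or 5 bases of any kind (N) between them. Among all 32851 mouse windows of this length, 0.222% held a repeat with 1 base between, 0.268% with 2 bases and 0.0974% with 5 bases. Of the 11 windows of these genes, 1 held a match, a repeat with 5 bases between at an internal start of Rarb (window chr14:16575427-16575726, minus strand, within the gene). The match, chr14:16575513-16575529, lay 53 to 37 bases upstream of that start on the strand of the gene and is in capitals. The Dhrs3 window chr4:144892577-144892876 (plus strand) and the Cyp26b1 window chr6:84593761-84594060 (minus strand) held none of these letters, and all 3 are written 5′ to 3′.
Rarb: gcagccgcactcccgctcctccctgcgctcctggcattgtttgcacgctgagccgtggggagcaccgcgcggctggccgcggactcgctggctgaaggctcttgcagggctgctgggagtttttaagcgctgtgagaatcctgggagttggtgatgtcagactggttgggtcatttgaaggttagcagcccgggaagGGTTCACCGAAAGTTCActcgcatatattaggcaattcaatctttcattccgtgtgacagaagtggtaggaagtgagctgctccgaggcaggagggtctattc
Dhrs3: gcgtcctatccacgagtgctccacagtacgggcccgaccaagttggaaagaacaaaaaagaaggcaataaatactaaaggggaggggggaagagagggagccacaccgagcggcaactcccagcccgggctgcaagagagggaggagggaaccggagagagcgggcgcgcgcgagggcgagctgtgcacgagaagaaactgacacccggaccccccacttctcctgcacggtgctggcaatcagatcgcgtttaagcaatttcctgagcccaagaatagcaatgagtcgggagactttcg
Cyp26b1: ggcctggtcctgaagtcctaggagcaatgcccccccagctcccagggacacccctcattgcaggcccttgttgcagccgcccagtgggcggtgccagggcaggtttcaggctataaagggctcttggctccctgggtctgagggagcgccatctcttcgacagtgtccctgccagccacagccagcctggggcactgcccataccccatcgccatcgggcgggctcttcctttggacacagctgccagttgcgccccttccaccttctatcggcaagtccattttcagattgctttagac
A match is a description of the sequence and says nothing of whether a receptor binds there.

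The E14 library held 15636 barcodes with 122892080 UMIs (median 5605 per barcode) and the P2 library 6251 barcodes with 57003553 UMIs (median 3068). After filtering, 10138 and 3877 cells were kept, which fell into 33 and 27 clusters without any use of the 9 genes or of 37 further genes of the pathway. Clusters were named by lists of marker genes, with a rule set after the marker tables were seen. The named classes included hair cell-like cells (HCs, 197 at E14 and 918 at P2), supporting cell-like cells (SCs, 1279 and 850), nonsensory epithelial-like cells (382 and 102) and mesenchymal cell-like cells (4145 and 33). HC clusters carried 4 to 12 markers of their list, SC clusters 3 to 12 and nonsensory clusters 3 to 6. The tissue label names a sensory epithelium, whereas 40.9% of the E14 cells were mesenchymal cell-like. The markers did not settle the name of 10 E14 clusters with 31.6% of the cells and of 11 P2 clusters with 50.9%, and these stayed unnamed. At E14, the SC clusters led by Zpld1 (285 cells) and Igfbpl1 (50 cells) carried genes of the cristae, the neighboring semicircular canal organs, and Zpld1 reached 1505 UMIs per 1000000 UMIs (CPM) over all E14 SCs, against 2.43 CPM over P2 SCs. These clusters were taken as crista-type because Zpld1, Msx1 and Lmo4 together gave more UMIs than the macular genes Otol1, Otop1 and Tectb. The Igfbpl1-led cluster also passed the marker rule for Tectb, so its crista label is less clear. The same 23 barcode sequences occurred in both libraries.

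**Figure D1:**
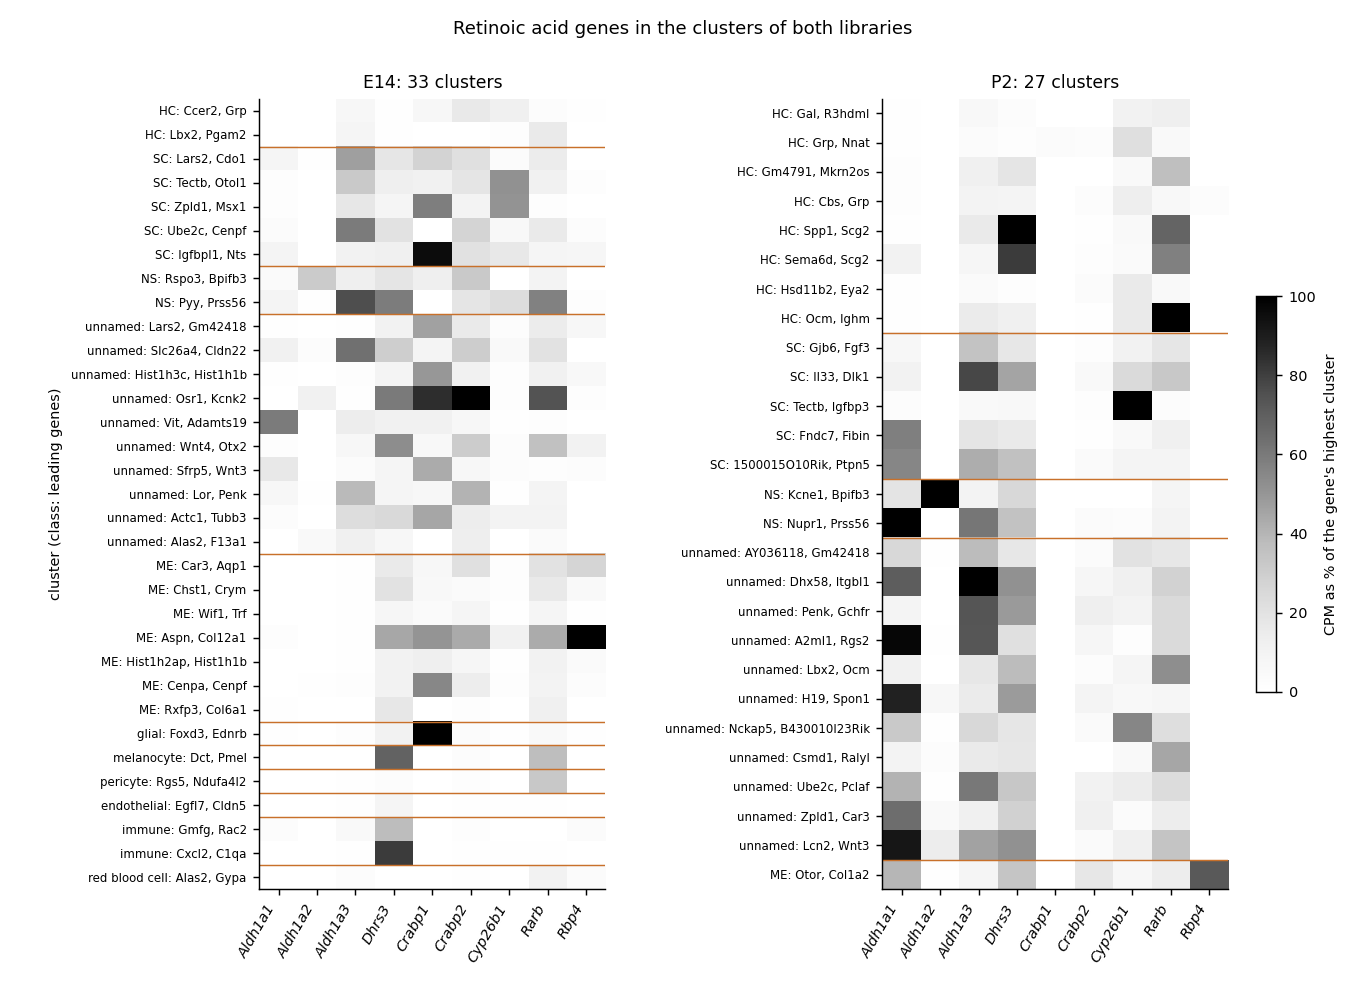
Level of the 9 genes in every cluster of the E14 (33 clusters, left) and P2 (27 clusters, right) libraries, with 1 row per cluster named by its class (HC, SC, NS for nonsensory epithelial-like, ME for mesenchymal cell-like) and leading genes. The shade gives the CPM as a percent of the gene's highest cluster over both libraries; a reader should see Aldh1a2, Cyp26b1 and Rbp4 confined to few dark fields, and Aldh1a3 and Dhrs3 spread over many clusters.

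The 3 retinal dehydrogenases occupied different cells. Aldh1a3 gave UMIs in every cluster of both libraries, and Aldh1a2 was high in the Kcne1-led nonsensory cells of both ages. Aldh1a1 was low in most E14 clusters and gave UMIs in every cluster of P2. Counts for the genes over all kept cells of E14 and P2 were 12587 and 19493 UMIs (Aldh1a3), 1401 and 584 UMIs (Aldh1a2), and 1497 and 3942 UMIs (Aldh1a1). Lengths of the transcripts were not used, so levels are compared between cells and never between genes.

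Aldh1a3 (ENSMUSG00000015134, chr7:66390890-66427517, minus strand, GRCm38) encodes the dehydrogenase best known from the eye and nasal region. At E14 its level was 345 CPM (95% interval 334 to 356) in SCs, 297 (283 to 312) in nonsensory epithelial-like cells, 86.5 (75.5 to 98.7) in HCs and 7.01 (6.12 to 7.99) in mesenchymal cell-like cells. At P2 the order among epithelial classes was nonsensory epithelial-like with 557 CPM (520 to 595), SCs with 450.1 (439 to 461) and HCs with 97.3 (91.9 to 103). Levels in the epithelial classes were thus far above the mesenchymal one at E14, and no neighbors in either order had overlapping intervals. The highest clusters were the Dhx58-led unnamed cluster of P2 with 1224 CPM, the Il33-led SCs of P2 with 954 (919 to 991) and the Pyy-led nonsensory cells of E14 with 930.4 (871 to 993).

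Aldh1a2 (ENSMUSG00000013584, chr9:71215789-71296243, plus strand, GRCm38) encodes the main retinoic acid-making enzyme of the early embryo. Most of it sat in the cells led by Rspo3, Bpifb3 and Kcne1, the last a potassium channel subunit of endolymph-secreting dark cells. The 310 such cells of E14 held 222 CPM (208 to 236), 71.2% of the gene's UMIs at that age, and the 53 such cells of P2 held 711 CPM (637 to 792), 57.5% of its UMIs. The Osr1-led unnamed cluster of E14 followed with 81.5 CPM (71.4 to 92.7) in 378 cells. In contrast, SCs held 0.584 CPM at E14 and 0.722 at P2, and HCs 0.390 and 0.232. The 98.9 CPM of the Lcn2-led cluster at P2 came from few cells, with 41 of its 42 UMIs in 1 cell.

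Aldh1a1 (ENSMUSG00000053279, chr19:20492715-20643465, plus strand, GRCm38) encodes the enzyme that dominates in many adult tissues. It overlaps the gene C730002L08Rik of the opposite strand. At E14, 63.3% of its UMIs came from 1 unnamed cluster led by Vit, Adamts19 and Col1a1, with 188 CPM (176 to 200) in 292 cells, while E14 SCs held 7.18 CPM (5.74 to 8.86). At P2 it gave UMIs in all 27 clusters, at a median of 36.3 CPM and a lowest level of 2.05. The part of free RNA in the low levels was not tested. Highest were the Nupr1-led nonsensory cells with 316 CPM (283 to 351) and the A2ml1-led unnamed cluster with 308 (264 to 357), whose intervals overlapped. The SC clusters of P2 were far apart: 183 CPM (166 to 202) in the Fndc7-led and 175 (158 to 194) in the 1500015O10Rik-led cells, against 34.3 in the Il33-led, 21.6 in the Gjb6-led and 7.98 in the Tectb-led cells.

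Dhrs3 (ENSMUSG00000066026, chr4:144892827-144928209, plus strand, GRCm38), which lowers retinal by reducing it to retinol, was high in several clusters outside the named epithelial classes. At E14 the Cxcl2-led immune-like cells held 151 CPM (131 to 173), the melanocyte-like cells 128 (95.3 to 167) and the unnamed Osr1-led cluster 111 (99.5 to 124). The E14 HCs were at the other end with 1.17 CPM (0.241 to 3.42), 3 UMIs in 197 cells. At P2 the highest levels were in HCs, with 186 CPM (165 to 209) in the Spp1-led and 151 (106 to 209) in the Sema6d-led cluster. The intervals of the leading pair overlapped at both ages.

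Cyp26b1 (ENSMUSG00000063415, chr6:84571414-84593908, minus strand, GRCm38), the breakdown enzyme, was a gene of SCs and to a lesser extent of HCs. The E14 SCs held 50.1 CPM (46.1 to 54.2), the E14 HCs 11.3 (7.57 to 16.2), the nonsensory epithelial-like cells 4.92 and the mesenchymal cell-like cells 2.82. At P2 the SCs held 30.5 CPM (27.8 to 33.4), the HCs 14.2 (12.2 to 16.4) and the nonsensory epithelial-like cells 1.94. Within SCs it was uneven at both ages. The Tectb-led cluster, named here by a tectorin gene known from the striola, held 59.1 CPM (53.1 to 65.5) at E14 and 114 (101 to 128) at P2. The Zpld1-led crista-type SCs of E14 held 58.0 CPM (50.6 to 66.2).

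Crabp2 (ENSMUSG00000004885, chr3:87948666-87953376, plus strand, GRCm38) encodes the binding protein that hands retinoic acid to its receptors, and Crabp1 (ENSMUSG00000032291, chr9:54764748-54773110, plus strand, GRCm38) its relative. Crabp2 gave 8141 UMIs over the 10138 cells of E14 and 953 over the 3877 cells of P2. Its highest cluster at E14 was the Osr1-led one with 518 CPM (492 to 545), followed by the Aspn-led mesenchymal cells with 226 (212 to 242). At P2 its highest level was 90.4 CPM (48.1 to 155) in the 33 mesenchymal cell-like cells, on 13 UMIs, followed by the Penk-led unnamed cluster with 65.6. Classes of E14 were closer together, with 153 CPM (143 to 164) in nonsensory epithelial-like cells, 85.0 (79.8 to 90.3) in SCs, 77.6 (74.6 to 80.8) in mesenchymal cell-like cells and 64.7 (55.2 to 75.3) in HCs. Crabp1 was sparse throughout, with 158 UMIs at E14 and 1 at P2, and its highest level of 8.56 CPM (5.43 to 12.8) was in glial-like cells.

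Rarb (ENSMUSG00000017491, chr14:16430839-16819156, minus strand, GRCm38), the receptor, overlaps Top2b and Gm48162 on the opposite strand, and whether counting used strand is not given in the sources used here. At E14 it was highest in the Osr1-led cluster with 113 CPM (101 to 126) and the Pyy-led nonsensory cells with 87.0 (69.6 to 107), and at P2 in the Ocm-led HCs with 152 (123 to 187). Rbp4 (ENSMUSG00000024990, chr19:38116629-38125281, minus strand, GRCm38), the retinol carrier, was a gene of mesenchyme: 53.1% of its 571 UMIs of E14 came from the Aspn-led cells with 77.1 CPM (68.7 to 86.3) and 28.7% from the Car3-led cells with 20.7. At P2 it gave 10 UMIs, of which 8 lay in the 33 mesenchymal cell-like cells.

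**Figure D2:**
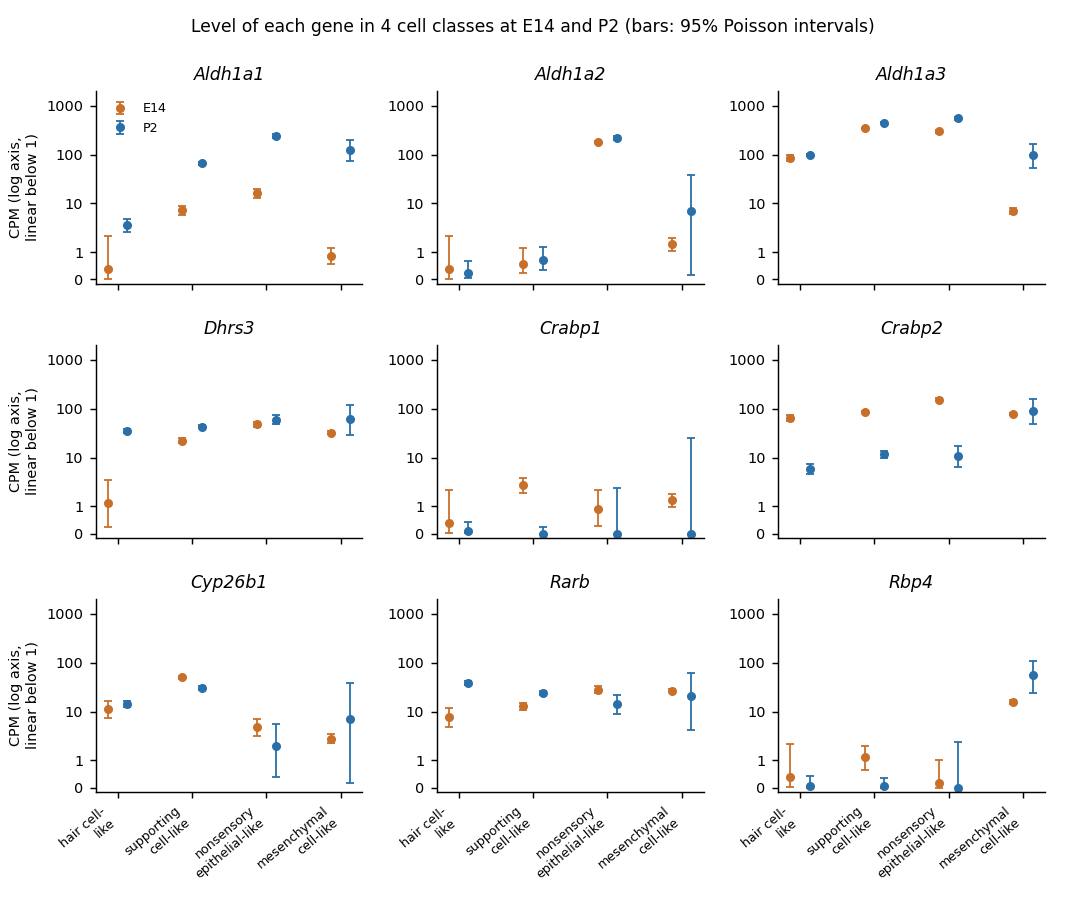
CPM of each gene (vertical axis, logarithmic and linear below 1) in hair cell-like, supporting cell-like, nonsensory epithelial-like and mesenchymal cell-like cells at E14 (orange) and P2 (blue), with points for summed UMIs and bars for 95% Poisson intervals. In HCs, SCs and nonsensory epithelial-like cells, Aldh1a1 stood higher and Crabp2 lower at P2, and Aldh1a2 stood near 200 CPM in nonsensory epithelial-like cells at both ages. The mesenchymal cell-like points of P2 rest on 33 cells, and no order between the ages is read from them.

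To ask how the genes differed between the ages, summed UMIs of a class at P2 were set against the same class at E14. A gene was called where its levels were at least 2-fold apart, at least 20 UMIs lay in both groups together and the interval of the ratio left out 1. The same rule was run over all genes to give the share called. The clusters behind a class differed between ages. SCs were the Lars2-, Tectb-, Zpld1-, Ube2c- and Igfbpl1-led clusters at E14 and the Gjb6-, Il33-, Tectb-, Fndc7- and 1500015O10Rik-led clusters at P2, and HCs were the Grp- and Lbx2-led clusters at E14 and the Gal-, Grp-, Gm4791-, Cbs-, Spp1-, Sema6d-, Hsd11b2- and Ocm-led clusters at P2. Nonsensory epithelial-like cells were the Rspo3- and Pyy-led clusters at E14 and the Kcne1- and Nupr1-led clusters at P2.

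In SCs, Aldh1a1 was higher at P2, and Crabp2 and Crabp1 were lower. Of 7 members with enough UMIs, 1 was called higher and 2 lower, where 11% of 13582 genes were called higher and 8.67% lower, 19.7% in all. Aldh1a1 stood at 7.18 CPM at E14 and 65.9 (61.8 to 70.1) at P2, 9.18-fold higher (7.36 to 11.6). This class too was made up differently at each age, and the P2 level was highest in the Fndc7- and 1500015O10Rik-led cells. Between the Tectb-led cells of both ages, whose clusters differed in the markers they passed, Aldh1a1 was not called. Crabp2 stood at 85.0 CPM at E14 and 11.6 (9.91 to 13.4) at P2, 7.35-fold lower (6.26 to 8.68). Crabp1 gave 33 UMIs at E14 and 0 at P2, which puts it at least 10.7-fold lower by the bound of the interval, a call kept under 6 of 9 alternatives. The remaining members stayed under the 2-fold line: Dhrs3 at 1.93-fold (1.67 to 2.23), Rarb at 1.87-fold (1.55 to 2.28), Aldh1a3 at 1.31-fold (1.26 to 1.36), and Cyp26b1 lower by 1.64-fold (1.45 to 1.86). The median log2 ratio was 0.65 over the 7 members and 0.09 over all genes. With the crista-type clusters of E14 left out, Aldh1a1 was 9.60-fold higher (7.25 to 13.0) and the ratio of Crabp2 was 0.115 (0.0972 to 0.136).

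In HCs, Dhrs3 and Rarb were higher at P2 and Crabp2 was lower. Of 6 members with enough UMIs, 3 were called higher and 1 lower, where 6.38% of 12463 genes were called higher and 5.01% lower, 11.4% in all. Dhrs3 stood at 1.17 CPM at E14 (3 UMIs) and 35.3 (32.1 to 38.7) at P2, a ratio of 30.2 (10.3 to 147). Rarb stood at 7.79 CPM (4.76 to 12.0) at E14 and 39.2 (35.9 to 42.8) at P2, 5.03-fold higher (3.22 to 8.31). Crabp2 stood at 64.7 CPM at E14 and 5.81 (4.57 to 7.29) at P2, 11.1-fold lower (8.42 to 14.8). Aldh1a3 at 1.12-fold (0.974 to 1.30) and Cyp26b1 at 1.26-fold (0.845 to 1.93) had intervals that held 1. The third member called higher was Aldh1a1, with 1 UMI in E14 HCs and 46 in P2 HCs, a ratio of 9.15 (1.56 to 369). Its level in HCs was 5.43% of that in SCs at E14 and 5.41% at P2, beside 7.23% and 3.93% for the SC gene Otol1, 8.15% and 2.95% for Otop1 and 0.983% and 4.88% for Tectb. The part of free RNA in this ratio was not tested. The class was made up differently at the 2 ages. In the Grp-led cells, Dhrs3 stood at 1.01 CPM in the 157 cells of E14 and at 4.36 in the 365 cells of P2, and Rarb at 3.02 and 7.47. The higher levels of P2 lay in the Spp1-, Sema6d- and, for Rarb, Ocm- and Gm4791-led clusters.

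In nonsensory epithelial-like cells, Aldh1a1 was again higher and Crabp2 again lower at P2. Of 7 members, 1 was called higher and 1 lower, where 8.68% of 11663 genes were called higher and 9.99% lower, 18.7% in all. The count of 2 became 4 to 6 under 6 alternatives, with Aldh1a3 called in 5 of 9 and Aldh1a2 in 4 of 9. Aldh1a1 stood at 16.0 CPM (12.9 to 19.8) at E14 and 238 (214 to 263) at P2, 14.8-fold higher (11.7 to 18.9), and Crabp2 at 153 and 11.0 CPM, 14.0-fold lower (8.67 to 24.1). When the comparison was held to the Kcne1-led cells of both ages, Aldh1a2 was higher at P2, at 711 against 222 CPM, 3.21-fold (2.83 to 3.63). Aldh1a1 was then 4.52-fold higher (2.78 to 7.21), and Crabp2, with 745 UMIs at E14 and 0 at P2, was at least 21.1-fold lower by the bound of the interval. In that comparison 2 of 6 members were called higher and 1 lower, where 6.65% of 10817 genes were called higher and 8.63% lower, 15.3% in all. The P2 cells of this kind were shallow, with a median of 1964 UMIs.

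**Figure D3:**
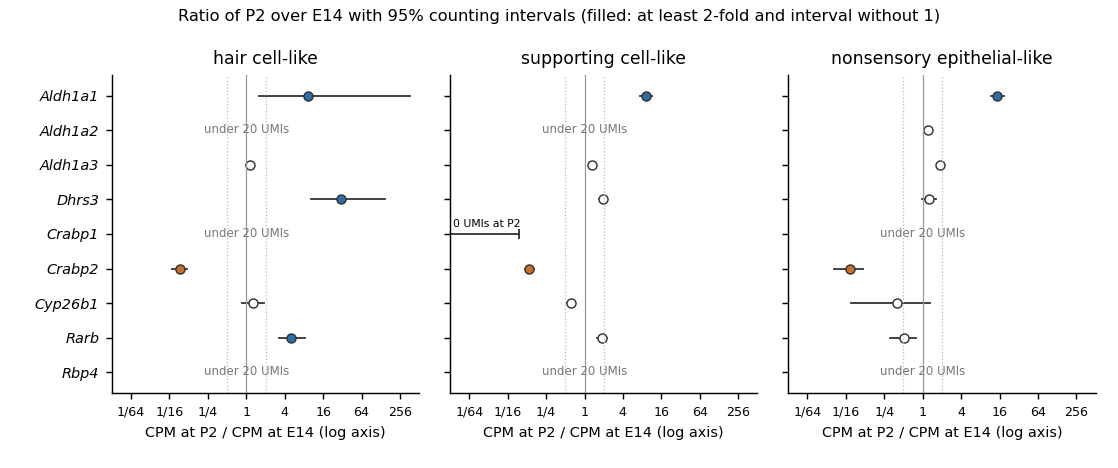
Ratio of the CPM at P2 over the CPM at E14 (horizontal logarithmic axis) for each gene in hair cell-like, supporting cell-like and nonsensory epithelial-like cells, with bars for 95% counting intervals, filled points for genes called and dotted lines at 2-fold. Aldh1a1 lies to the right and Crabp2 to the left in all 3 panels, while Dhrs3 and Rarb are filled in hair cell-like cells alone; whether those ratios differ between classes was not tested.

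Next, HCs were set against SCs of the same library. HCs held less of the enzymes at E14, with 5 of 7 members called lower and 0 higher, where 17.2% of 12918 genes were called higher and 18.9% lower, 36.1% in all. Aldh1a3 was 3.99-fold lower (3.48 to 4.58) and Cyp26b1 4.43-fold lower (3.05 to 6.68) in HCs, and Dhrs3 had a ratio of 0.0525 (0.0107 to 0.155). Aldh1a1 and Crabp1, also called lower, each gave 1 UMI in HCs. Crabp2 at a ratio of 0.761 (0.642 to 0.898) and Rarb at 0.606 (0.360 to 0.969) were not called. At P2 the genes Aldh1a1, Aldh1a3 and Cyp26b1 remained lower in HCs, 3 of 6 members with 0 higher, where 19.5% of 13807 genes were called higher and 21.3% lower, 40.8% in all. The ratios at P2 were 0.216 (0.203 to 0.230) for Aldh1a3 and 0.465 (0.390 to 0.554) for Cyp26b1, whereas Dhrs3 at 0.821 (0.727 to 0.927) and Rarb at 1.63 (1.42 to 1.87) were not called. The P2 HCs held the SC genes Otol1, Otop1 and Tectb at 3.93%, 2.95% and 4.88% of the SC level, whereas they held Aldh1a3 at 21.6% and Cyp26b1 at 46.5%. The same shares at E14 were 7.23%, 8.15% and 0.983% for the 3 SC genes, and 25.1% and 22.6% for Aldh1a3 and Cyp26b1.

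Shares of cells pointed the same way as the summed levels. Each cell was thinned to 4000 UMIs so that depth was equal, which left out 19 of 197 HCs and 671 of 1279 SCs at E14, and 92 of 918 HCs and 44 of 850 SCs at P2. Aldh1a3 was seen in 21.9% (16.1 to 28.7, exact binomial interval) of HCs and 51.3% (47.3 to 55.4) of SCs at E14, and in 31.8% (28.7 to 35.1) and 68.0% (64.7 to 71.2) at P2. Without thinning these shares were 46.7% and 56.8% at E14 and 59.6% and 86.4% at P2. Rarb was seen in 13.4% (11.2 to 16.0) of P2 HCs and 8.93% (7.06 to 11.1) of P2 SCs, which were 32.0% and 28.9% without thinning. Over the 9 genes and both ages, the intervals of HCs and SCs lay apart 7 times. The share of all genes that lay apart by this rule was not counted, so this count is not read as a result about the members. As a gauge within HCs, the SC gene Otol1 was seen in 9.55% (5.66 to 14.9) of them at E14 and 24.2% (21.3 to 27.3) at P2. Without thinning these shares were 15.2% and 57.0%, and the part of free RNA in the Aldh1a3 shares was not tested. As a gauge of background, the immune-, endothelial- and red blood cell-like cells of E14 (199 after thinning, unthinned median 3309 UMIs against 14209 in HCs and 3392 in SCs) had Aldh1a3 in 5.53% (2.79 to 9.68), Rarb in 1.01% and Cyp26b1 in 0 of 199 cells (0 to 1.84; 3 cells would be 1.51%), a limit on cells with a UMI and not on cells that express the gene.

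Nonsensory epithelial-like cells set against SCs held much more Aldh1a2 and less Cyp26b1. At E14, 4 of 8 members were called higher and 2 lower (10.7% of 13072 genes were called higher and 9.55% lower, 20.3% in all). At P2, 2 of 7 were called higher and 1 lower (8.14% of 12850 genes higher and 8.38% lower, 16.5% in all). Aldh1a2 was 312-fold higher (151 to 778) at E14 and 300.2-fold higher (166 to 607) at P2, and Cyp26b1 was 10.2-fold lower (6.93 to 15.6) and 15.7-fold lower (5.35 to 76.6). Aldh1a1 was 2.23-fold (1.64 to 3.04) and 3.61-fold (3.19 to 4.07) higher, while Dhrs3 and Rarb were called at E14 alone, at 2.13-fold (1.79 to 2.54) and 2.20-fold (1.75 to 2.76). At E14 the ratio of Aldh1a1 ranged from 1.10 to 8.32 over 9 alternatives and was called in 5 of them, while the calls of Dhrs3 and Rarb were each kept in 6. The Aldh1a2 result of P2 rested on the 53 Kcne1-led cells: without shallow clusters the ratio was 0 (0 to 5.63).

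Mesenchymal cell-like cells of E14 held little Aldh1a3, Cyp26b1 and Aldh1a1 and most of the Rbp4 UMIs. Against SCs, 3 of 9 members were called higher and 4 lower, where 12.9% of 14157 genes were called higher and 16.6% lower, 29.4% in all. Rbp4 was 13.7-fold higher (8.07 to 25.2), at 16.0 against 1.17 CPM, and Rarb 2.08-fold higher (1.75 to 2.49), a call kept under 5 of 9 alternatives (ratios of 1.49 to 2.22). Dhrs3, at 32.5 against 22.3 CPM, had a ratio of 1.46 (1.27 to 1.67), under the 2-fold line. Aldh1a3 was 49.2-fold lower (43.0 to 56.5), Cyp26b1 17.8-fold lower (14.2 to 22.4) and Aldh1a1 8.49-fold lower (5.46 to 13.6). Aldh1a2 and Crabp1, also called, had at most 47 UMIs in either class, and under other settings their ratios of 2.52 and 0.489 crossed 1. Mesenchyme was too scarce at P2, with 33 cells, for a comparison.

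Synthesis and breakdown genes lay apart within SCs. At P2 the Tectb-led SCs (154 cells) were the highest of all clusters in Cyp26b1 and the lowest SC cluster in Aldh1a3. Against the other 696 SCs, 1 of 6 members was called higher and 4 lower, where 3.74% of 12558 genes were called higher and 5.21% lower, 8.95% in all. Cyp26b1 stood at 114 against 14.0 CPM, 8.16-fold higher (6.74 to 9.89), and Aldh1a3 at 61.5 against 527 CPM, 8.57-fold lower (7.30 to 10.1). Aldh1a1 was 9.68-fold lower (6.23 to 15.9), Rarb 7.83-fold lower (4.08 to 17.3) and Dhrs3 4.76-fold lower (3.22 to 7.34). Crabp2 was not called, with a ratio of 0.578 (0.334 to 0.944). Among the 5 SC clusters of P2, the Tectb-led one thus held the most Cyp26b1 and the least Aldh1a1, Aldh1a3, Dhrs3 and Rarb. The Il33-led one, with the most Aldh1a3, held more Cyp26b1 than the 14.0 CPM of those 696 SCs together. Aldh1a3 and Cyp26b1 were therefore not opposed in every SC cluster.

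At E14 the Tectb-led SCs (387 cells) were set against the other macular SCs, the Lars2- and Ube2c-led clusters (557 cells). Of 6 members, 1 was called higher and 1 lower, where 9.56% of 11431 genes were called higher and 3.39% lower, 13% in all. Cyp26b1 stood at 59.1 against 4.41 CPM, 13.4-fold higher (6.09 to 36.7), although on 6 UMIs in the other cells. Aldh1a3 stood at 390 against 633 CPM, with a ratio of 0.616 (0.570 to 0.667), and was not called. The other macular cells were shallow, with medians of 1453 and 2226.5 UMIs against 8722 in the Tectb-led cells. The Tectb-led clusters of the ages were not alike: the E14 one also passed the marker rule for Otol1 and Otop1, and the P2 one did not. The part of this make-up in the age ratios that follow was not tested. Between the ages within Tectb-led cells, Aldh1a3 was 6.35-fold lower (5.39 to 7.52) and Crabp2 13.3-fold lower (8.35 to 22.6) at P2. Dhrs3 was 2.27-fold lower (1.49 to 3.59) and Rarb 4.72-fold lower (2.39 to 10.6), and 4 of 6 members were called lower in all, where 6.66% of 11716 genes were called higher and 7.62% lower, 14.3% in all. Cyp26b1 stood at 59.1 and 114 CPM, a ratio of 1.93 (1.65 to 2.26), under the 2-fold line. Aldh1a1, higher at P2 over all SCs, was not called within these cells.

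The cluster level hid a division among E14 cells. In the thinned cells of E14, crista-type SCs included, Cyp26b1 was seen in 43.6% (34.2 to 53.4) of 110 SCs with a Tectb UMI and in 10.6% (8.07 to 13.7) of 498 SCs without. Aldh1a3 showed the opposite, in 12.7% (7.14 to 20.4) of SCs with Tectb and 59.8% (55.4 to 64.2) of those without. Without thinning, Cyp26b1 was in 58.6% and 9.41% and Aldh1a3 in 32.8% and 60.6% of SCs with and without Tectb. By Otop1, a gene of otoconia formation in the macula, Aldh1a3 was in 78.3% (69.6 to 85.4) of 115 SCs with and 45.0% (40.6 to 49.5) of 493 without. Cyp26b1 was in 6.09% (2.48 to 12.1) and 19.1% (15.7 to 22.8), but in 19.4% and 15.2% without thinning, so no order is read for it. Both genes met directly in few cells: Aldh1a3 was seen in 10.9% (5.56 to 18.7) of 101 E14 SCs with a Cyp26b1 UMI and in 59.4% (55.0 to 63.7) of 507 without.

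At P2 the genes were divided the same way. A Tectb UMI need not mean expression, since the other SC clusters of P2 held 23.6 to 42.5 CPM of Tectb and the Gal-, Grp-, Gm4791- and Spp1-led HCs 30.5 to 36.6 (the remaining HC clusters up to 438), against 8770 in the 154 Tectb-led cells. Cyp26b1 was seen in 21.9% (16.6 to 28.0) of 219 SCs with Tectb against 5.28% (3.62 to 7.41) of 587 without, and Aldh1a3 in 45.2% (38.5 to 52.1) against 76.5% (72.8 to 79.9). Without thinning, the shares were 32.2% and 15.2% for Cyp26b1 and 79.5% and 93.3% for Aldh1a3. Aldh1a3 was seen in 41.8% (30.8 to 53.4) of 79 SCs with Cyp26b1 and in 70.8% (67.4 to 74.1) of 727 without. For Otop1 no member's intervals lay apart at P2 after thinning to 4000 UMIs, while after thinning to 2000 UMIs Dhrs3 was seen in 0 of 84 SCs with Otop1 (0 to 4.30) and 9.04% (7.10 to 11.3) of 763 without. Without thinning the order was the opposite, 51.8% and 32.8%, so none is read. Over the 9 genes and 3 such splits (SCs by Tectb and Otop1, HCs by Ocm) at both ages, 9 pairs of intervals lay apart. Among them was Cyp26b1 by Otop1 at E14, for which no order is read. The share over all genes was not counted for these splits, so the count is not read as a result about the members.

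**Figure D4:**
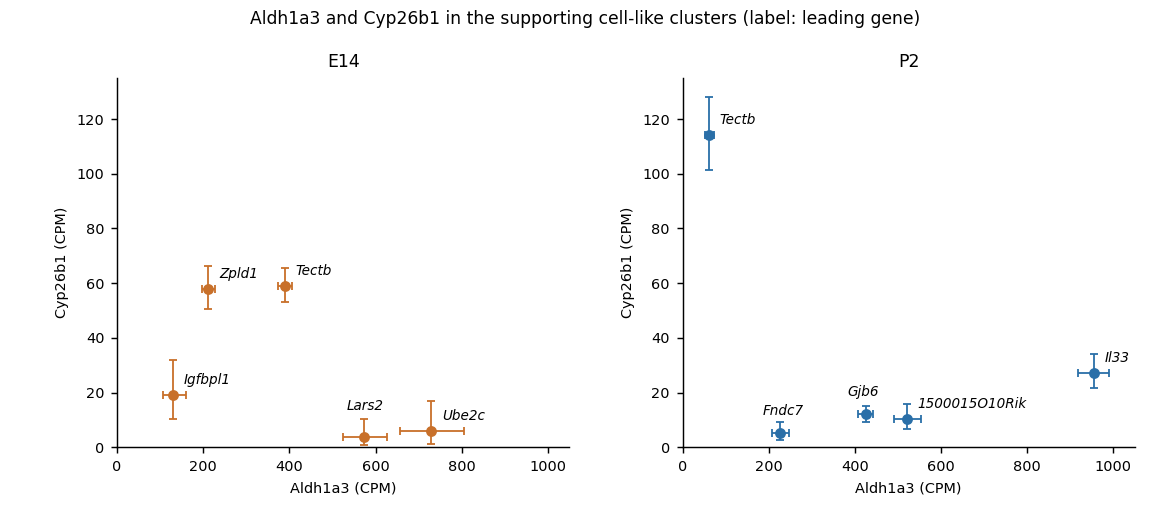
CPM of Aldh1a3 (horizontal axis) and Cyp26b1 (vertical axis) in the supporting cell-like clusters of E14 (left, orange) and P2 (right, blue), 1 point per cluster labeled by its leading gene, with 95% Poisson bars. At P2 the Tectb-led cluster stands alone at 61.5 and 114 CPM, while the Il33-led cluster lies at the other corner with 954 and 27.3 CPM.

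HC clusters differed from one another in Dhrs3 and Rarb. The Slc17a8-led HCs of P2, those of the Spp1- and Sema6d-led clusters (180 cells), were set against the other 738. Spp1 is known from type I hair cells and Slc17a8 encodes the glutamate transporter VGLUT3. Of 6 members, 4 were called higher and 1 lower, where 8.52% of 12151 genes were called higher and 10.6% lower, 19.2% in all. Dhrs3 stood at 181 against 11.4 CPM, 16.0-fold higher (13.0 to 19.8), and Rarb at 101 against 29.1 CPM, 3.47-fold higher (2.88 to 4.17). Aldh1a3 was 2.09-fold higher (1.84 to 2.38) and Aldh1a1 2.41-fold higher (1.16 to 4.70), the last on 13 UMIs. SC genes were also uneven among HCs. Otol1 stood at 159 CPM in the Sema6d-led and 78.2 in the Spp1-led cells. In the other HC clusters it ranged from 42.5 (Grp-led) to 249 CPM (Hsd11b2-led). The part of free RNA in the Aldh1a1 ratio was not tested. Cyp26b1 had a ratio of 0.354 (0.167 to 0.666), at 5.52 against 15.6 CPM.

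The Grp-led HCs of P2 (the Grp-, Cbs- and Hsd11b2-led clusters, 365 cells) showed lower levels of the same pair of genes. Dhrs3 was 12.3-fold lower (7.95 to 20.1), Rarb 7.78-fold lower (5.54 to 11.2) and Aldh1a3 2.48-fold lower (2.15 to 2.87) than in the other HCs. Crabp2 was 4.95-fold higher (2.90 to 8.82) and Cyp26b1 2.42-fold higher (1.78 to 3.29), so that 2 of 6 members were called higher and 3 lower (5.88% of 12151 genes were called higher and 12.7% lower, 18.6% in all). The SC gene Otol1 stood at 42.5, 183 and 249 CPM in the Grp-, Cbs- and Hsd11b2-led clusters, against 52.7 (Gal-led) to 159 (Sema6d-led) in the others. The part of free RNA in the Crabp2 and Cyp26b1 ratios was not tested. Atoh1, the transcription factor that starts hair cell formation, was a leading gene of the Grp-led cluster itself, not of the Cbs- or Hsd11b2-led ones. It stood at 325, 142 and 317 CPM in the Grp-, Cbs- and Hsd11b2-led clusters. The other HC clusters held 3.31 CPM (Ocm-led) to 211 CPM (Gal-led), the last above the Cbs-led cells. These comparisons share cells, since each group is part of the rest in the other.

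Rarb also marked the Ocm-led HCs (35 cells), which held 152 CPM (123 to 187) of Rarb with 23.2 CPM of Dhrs3, so the pair did not rise together in every cluster. Ocm, oncomodulin, is a calcium buffer known from striolar hair cells. After thinning, Rarb was seen in 24.5% (16.4 to 34.2) of 98 P2 HCs with an Ocm UMI and 12.0% (9.68 to 14.5) of 728 without, or 41.8% and 29.4% without thinning. After thinning to 2000 UMIs the intervals overlapped, at 15.6% (8.32 to 25.6) of 77 and 6.84% (5.21 to 8.79) of 819. An Ocm UMI need not mean expression, since the other HC clusters of P2 held 9.67 to 124 CPM of Ocm, against 5626 in the Ocm-led cells. In cells with a Dhrs3 UMI, Rarb was seen in 32.3% (22.9 to 42.7) of 93, against 11.1% (8.87 to 13.5) of 733 without. At E14 the Lbx2-led HCs (40 cells), which carried Ocm, held 24.2 CPM of Rarb on 14 UMIs against 3.02 on 6 UMIs in the Grp-led HCs (157 cells), 8.04-fold higher (2.90 to 25.5). Crabp2 gave 0 UMIs in the Lbx2-led and 166 in the Grp-led HCs, at least 12.9-fold lower by the bound of the interval. Cyp26b1, with 1 UMI against 28, had a ratio of 0.123 (0.00301 to 0.744), and 1 of 4 members was thus called higher and 2 lower (11.1% of 9188 genes were called higher and 9.32% lower, 20.4% in all).

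**Figure D5:**
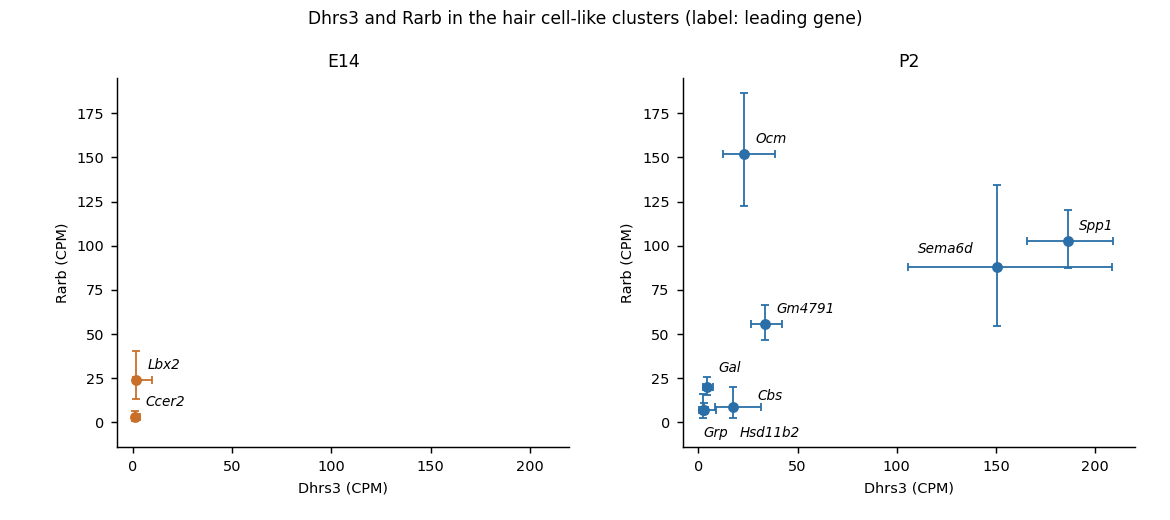
CPM of Dhrs3 (horizontal axis) and Rarb (vertical axis) in the hair cell-like clusters of E14 (left, orange) and P2 (right, blue), 1 point per cluster labeled by its leading gene, with 95% Poisson bars; the E14 cluster labeled Ccer2 is the Grp-led one of the text. The Spp1- and Sema6d-led clusters of P2 lie far to the right, the Ocm-led cluster lies high at 152 CPM of Rarb, and both E14 clusters lie near the origin.

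Among the 37 other genes of the pathway, the retinol dehydrogenase gene Rdh10 was higher in SCs at P2. Between the ages in SCs, 4 of 25 genes with enough UMIs were called higher at P2 and 5 lower, beside 11% and 8.67% of all genes. Rdh10, which makes retinal, stood at 40.7 CPM at E14 and 179 at P2, 4.40-fold higher (3.99 to 4.85), and Rarres2, the chemerin gene, and Rdh12 were 6.29-fold (3.14 to 14.3) and 3.57-fold (1.94 to 7.10) higher. Rdh12 was mainly a gene of HCs, at 38.2 CPM at E14 and 48.1 at P2, against 1.08 and 3.87 in SCs. The part of free RNA in its SC ratio was not tested. Lower were Ttr, the retinol transport partner, with a ratio of 0.00771 (0.000193 to 0.0439) on 1 UMI at P2 (over all cells the gene gave 3817 UMIs at E14, 102 of them in SCs, and 3 at P2), Lrat, which esterifies retinol, with 0.105 (0.0268 to 0.298), and Tgm2 with 0.139 (0.0261 to 0.480). Stra6, the retinol receptor, stood at 14.5 and 22.6 CPM, 1.56-fold (1.29 to 1.88), and was not called. The receptors Rara (20.4 and 24.6 CPM), Rarg (8.68 and 9.98) and Rxra (7.76 and 6.43) were not called. The relatives of Cyp26b1 gave few UMIs: Cyp26a1 gave 2 and 6 in SCs of E14 and P2 and 47 and 10 over all cells, of which 32 lay in E14 mesenchymal cell-like cells, and Cyp26c1 gave 0 at both ages.

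In HCs, 0 of 19 pathway genes were called higher at P2 and 3 lower, beside 6.38% and 5.01% of all genes. They were Rbp7 with a ratio of 0.0199 (0.00225 to 0.0819), Rarres1 with 0.127 (0.0817 to 0.195) and Fabp5, a fatty acid and retinoic acid carrier, with 0.358 (0.341 to 0.375). Rdh10 stood at 18.7 and 33.6 CPM in HCs and Rara at 46.0 and 47.2 CPM. Within the P2 SCs, the Tectb-led cells held less Rdh10 (40.3 against 206 CPM, 5.12-fold lower), and 4 of 21 genes were called lower with 0 higher, beside 5.21% and 3.74% of all genes. Among them were also Rxrg, with 0 against 29 UMIs, and Rarres2, with 1 against 71. In the Slc17a8-led HCs, 2 of 18 genes were called higher and 4 lower, beside 8.52% and 10.6% of all genes. Higher were Stra6 at 3.81-fold (2.54 to 5.66) and Rdh12 at 3.48-fold (2.94 to 4.11), and among the lower were Fabp5, 17.3-fold lower at 23.7 against 410.0 CPM, Nrip1 with a ratio of 0.210 (0.163 to 0.268) and Rarres1 with 0 against 37 UMIs. Rara and Rxra were not called in either contrast.

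The genes most like each member over the clusters of a library were found by Pearson's r of log2(CPM + 5), over 33 clusters at E14 and 27 at P2 that share a library and its free RNA. For Cyp26b1 these were Lgr5 (r = 0.785), Rgs20 (0.772) and Fgf3 (0.763) at E14 and Gm29684 (0.696), Sptb (0.684) and Isl1 (0.681) at P2. For Aldh1a3 they were Epcam (0.915), Fam107a (0.909) and Cldn7 (0.906) at E14 and Rgs9 (0.830), Nfe2 (0.825) and Plekhb1 (0.807) at P2. Aldh1a2 was most like Kcne1 (0.760) at E14 and Lrp2 (0.879) at P2, with Bpifb3 second at both ages (0.737 and 0.860). Aldh1a1 was most like Sbspon (0.870) at E14 and Fxyd1 (0.902) at P2, Rbp4 like Syndig1 (0.807) at E14, Crabp2 like Flywch2 (0.823) and Arhgap28 (0.835), Dhrs3 like Npc2 (0.808) and Hs6st2 (0.783), and Rarb like Slc6a9 (0.695) and Kcnma1 (0.776). Between members, Dhrs3 and Rarb had r = 0.357 at E14 and 0.539 at P2, and Aldh1a3 and Cyp26b1 0.494 and -0.109.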

How the data were processed

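Single cells of 1 E14 and 1 P2 utricle library were analyzed from the deposited UMI counts, which the authors made per gene and barcode with Cell Ranger 3.1.0. Their methods give GRCm39 and the submitters' processing notes GRCm39 and mm10, which was not settled. Their Seurat 4.1.1 steps were not repeated, and whether counting used strand is not given in the sources used here. Gene IDs were matched to GENCODE M21 on GRCm38 for positions (99.86% matched).

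Cells entered with 500 or more genes, 1000 or more UMIs and a mitochondrial share up to 15%. The highest doublet scores, from 2 simulated doublets per cell, were removed at 0.8% per 1000 barcodes (1450 at E14, 204 at P2). Each library was clustered alone with 2000 variable genes, 30 principal components, 15 neighbors and Leiden resolution 1, without the members and pathway genes. A cluster was named from at least 3 markers of a list, by a rule set after the marker tables were seen. Members and lists were chosen with earlier results of these data known. Named were the 9 members, pathway genes called (at most the 3 largest each way) with Rdh10, Stra6, Cyp26a1, Cyp26c1, Rara, Rarg and Rxra always (1 further gene is not reported here), and the 3 genes most like each member with at least 100 UMIs (candidates: at least 200 UMIs).

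UMIs summed over a class and divided by all its UMIs gave CPM. Calls needed 2-fold, 20 UMIs in both sums and a 95% interval without 1, and were tested on simulated data. Shares were counted after thinning to 4000 UMIs. Alternatives were a stricter cell filter (1000 genes, 2000 UMIs, 10% mitochondrial), doublets kept, resolutions 0.5 and 2, CPM without mitochondrial, ribosomal and hemoglobin genes, a mean of each cell's CPM, no UMI minimum and thinning to 2000 UMIs. Chosen after seeing the data were leaving out crista-type or shallow clusters (median under 33.3% of the library's), holding to Kcne1-led clusters, and the contrasts of single clusters (Tectb-, Slc17a8-, Grp- and Lbx2-led). Work was done in Python 3.11.15 with leidenalg 0.10.2 and igraph 0.11.9 (clustering), scikit-learn 1.9.0 (neighbors), scipy 1.17.1 and numpy 2.4.6 (intervals), pandas 2.3.3 (tables) and matplotlib 3.10.9 (plots).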

Additional observations from a re-analysis of the deposited data

Results flagged for a closer look

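Some of the highest levels lay in clusters that the markers did not name and that no class comparison used. At E14, Aldh1a1 reached 188 CPM (176 to 200) in the cluster led by Vit, Adamts19 and Col1a1 (292 cells), against 7.18 CPM in SCs. Crabp2 reached 518 CPM (492 to 545) in the E14 cluster led by Osr1, Kcnk2 and Tppp3 (378 cells), which also held 113 CPM of Rarb and 111 CPM of Dhrs3. At P2, Aldh1a3 reached 1224 CPM (1189 to 1259) in the cluster led by Dhx58, Itgbl1 and Pdzd2 (250 cells, each with at least 1 UMI of the gene), against 450.1 CPM in SCs. What these cells are was not tested.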

How the results depend on the processing

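Of 33 member ratios called in the 8 class comparisons, 29 kept their direction and 22 their call under every alternative run (7 planned and 3 added). The called age ratios of Aldh1a1 ranged from 4.98 to 11.3 in SCs, 3.85 to 12.1 in HCs and 3.82 to 28.2 in nonsensory epithelial-like cells. The ratio of Crabp2 in SCs ranged from 0.0755 to 0.139, that of Dhrs3 in HCs from 4.87 to 50.4 and that of Rarb in HCs from 2.32 to 5.75. In 4 of the 8 comparisons the count of called members stayed within 1.5 times. Between ages in nonsensory epithelial-like cells, the count of 2 became 4 with the stricter filter, resolution 2, mean cell CPM or no shallow clusters, 5 with doublets kept and 6 at resolution 0.5. For mesenchymal cell-like cells against SCs, 7 became 4 with doublets kept, mean cell CPM or no crista-type clusters. For nonsensory epithelial-like cells against SCs, 6 at E14 became 2 with mean cell CPM and 3 without crista-type clusters, and 3 at P2 became 6 with the stricter filter or resolution 0.5. Direction turned for Aldh1a2 in mesenchymal cells to 0.704 (doublets kept) and 0.712 (mean cell CPM), Crabp1 there to 1.49 (doublets kept) and 1.25 (no crista-type clusters), Crabp1 in nonsensory cells to 1.02 (mean cell CPM), and Aldh1a2 at P2 to 0 where its 53-cell cluster was left out. Apart from that last one, the cause of these changes was not tested. Members whose share of cells differed between HCs and SCs beyond both intervals numbered 7 over both ages, and 5 after thinning to 2000 UMIs. The splits by Tectb, Ocm and Otop1 gave 9 and 8, not all of them the same pairs. After thinning to 2000 UMIs, Rarb by Ocm at P2 and Cyp26b1 by Otop1 at E14 no longer lay apart, and Dhrs3 by Otop1 at P2 did. The share over all genes was not counted for these rules. No paired analysis was possible because there was 1 library per age. Depth limits Crabp1 and Rbp4 at P2 (1 and 10 UMIs).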
